A study of Homo sapiens with 18 samples.

Results

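The response to interleukin 4 (IL-4) was followed in THP-1 cells that carried the active form of the receptor NOTCH1. THP-1 is an established line of human monocytic leukaemia cells. The response is the difference between 3 libraries of NIC1 cells kept with IL-4 and 3 libraries of NIC1 cells without it, so 6 of the series' 18 RNA-seq libraries form it, chosen by their titles and not by any measured value. NIC1 is the intracellular domain of NOTCH1 with a MYC tag, carried by a retroviral vector with GFP, and transduced cells were sorted for GFP. The other 12 libraries are cells with the GFP vector alone (IRES) or with dominant-negative Mastermind-like (DNMAML), likewise 3 without and 3 with IL-4 each, and serve here for comparison. All 6 groups, unstimulated ones included, had first received the phorbol ester PMA at 5 ng/ml for 48 h, and the stimulated ones then had IL-4 at 20 ng/ml for 3 h. Every group has 1 library from each of the experiments numbered 1, 2 and 3, and the sources used here do not say whether a number stands for a separate transduction or culture. If it does not, the p-values reflect technical spread alone.

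IL-4 binds a receptor of the IL4R chain with the common gamma chain (IL2RG) or with IL13RA1. Janus kinases on these chains phosphorylate STAT6, which enters the nucleus and binds DNA at inverted repeats of TTC and GAA. Monocytes and macrophages answer with a set of genes known as the alternatively activated programme, among them lipid oxidation enzymes, lectin and Fc receptors and inhibitors that end the signal. Active NOTCH1 needs no ligand: its intracellular domain joins RBPJ and Mastermind on DNA and turns target genes such as those of the HES and HEY families on.

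The 6 NIC1 libraries held between 12410668 and 15099788 reads counted in genes, with 21067 to 21495 genes detected in each. Of 13 tested markers of monocytes and macrophages, ITGAM and CEBPB rose with IL-4, none fell and 11 were not called, and the summed level of all 15 markers was 1586 to 1694 CPM (counts scaled to library size) without IL-4 and 1682 to 1745 CPM with it. CSF1R, ITGAX and SPI1 were above 200 CPM on average, while CD14 was at 3.40 and 3.32 CPM and CD68 at 1.12 and 0.825 CPM, and MRC1, the mannose receptor, had 1 count without and 2 with IL-4 in all. Of 24 tested markers of lymphocytes, fibroblasts, epithelia and the red cell and platelet lineages, NKG7 and CDH1 rose and none fell. Some of these genes are expressed in this line, such as TRAC at 108 and 96.3 CPM, CD3D at 32.1 and 23.6 CPM and COL1A1 at 107 and 101 CPM, while CD8B and THEMIS of T cells and IGHM and BLK of B cells had no count in the 6 libraries. The summed T cell markers went over 127 to 162 CPM without and 115 to 140 CPM with IL-4. The summed B cell markers, 3 of 8 of them tested, went over 15.2 to 20.9 CPM without and 13.4 to 17.8 CPM with IL-4.

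Before the levels are described, the DNA in front of a few of the genes that rose is shown, since IL-4 acts through STAT binding to it. STAT6 prefers TTC and GAA with 4 bases between them (the wide motif) and other STATs TTCNNNGAA with 3 (the narrow motif), where N is any base. Both read the same on either strand, and the 2 cannot begin at the same base. Each line gives the 250 bases before the RefSeq start of a gene (GRCh38.p14), 5′ to 3′ on the gene's own strand, with matches to either motif in capitals. CISH (3:50611775-50612024, minus strand) and SOCS1 (16:11256205-11256454, minus strand) are the feedback inhibitors with the highest changes, CCL8 (17:34319185-34319434, plus strand) is a chemokine among the 15 highest changes, and SUCNR1 (3:151873393-151873642, plus strand) and ICAM1 (19:10270870-10271119, plus strand) are among the 10 largest rises in CPM. CISH and SOCS1 are shown because the results turn on them, and the other 3 because they hold a motif. Of 11 genes with a promoter in the table among the 15 highest changes, CISH and CCL8 alone hold either motif, and of 9 among the 10 largest rises in CPM SUCNR1 and ICAM1 alone do. Of 10 among the 15 lowest changes TM4SF1, which fell, holds the wide one.
CISH: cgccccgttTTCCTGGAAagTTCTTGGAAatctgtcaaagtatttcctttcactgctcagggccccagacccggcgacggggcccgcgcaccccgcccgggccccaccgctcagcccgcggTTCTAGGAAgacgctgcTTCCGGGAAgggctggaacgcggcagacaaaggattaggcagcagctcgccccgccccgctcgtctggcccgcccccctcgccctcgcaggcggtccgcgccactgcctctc
SOCS1: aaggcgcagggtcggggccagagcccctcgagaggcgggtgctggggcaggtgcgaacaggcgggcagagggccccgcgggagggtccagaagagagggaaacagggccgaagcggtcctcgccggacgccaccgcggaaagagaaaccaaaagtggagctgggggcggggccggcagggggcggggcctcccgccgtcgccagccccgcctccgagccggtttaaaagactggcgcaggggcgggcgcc
CCL8: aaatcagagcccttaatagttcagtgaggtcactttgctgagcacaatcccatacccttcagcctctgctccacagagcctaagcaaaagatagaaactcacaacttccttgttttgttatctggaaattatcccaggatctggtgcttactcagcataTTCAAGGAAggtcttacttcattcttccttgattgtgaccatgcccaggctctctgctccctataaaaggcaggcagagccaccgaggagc
SUCNR1: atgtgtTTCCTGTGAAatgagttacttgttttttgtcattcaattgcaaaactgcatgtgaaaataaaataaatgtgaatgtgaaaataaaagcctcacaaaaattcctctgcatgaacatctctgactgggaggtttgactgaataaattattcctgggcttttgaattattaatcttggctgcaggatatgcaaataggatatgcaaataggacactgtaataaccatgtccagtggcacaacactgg
ICAM1: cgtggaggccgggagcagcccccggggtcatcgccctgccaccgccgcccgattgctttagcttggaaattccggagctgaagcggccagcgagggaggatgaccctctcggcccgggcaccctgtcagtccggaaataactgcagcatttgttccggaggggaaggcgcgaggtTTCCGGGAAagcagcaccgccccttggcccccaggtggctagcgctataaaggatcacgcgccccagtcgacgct

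The CISH window holds the narrow motif 4 times, beginning 241, 230, 129 and 112 bases before the start. Of the 27305 promoters in the table, 4 hold this motif 4 times or more, and 2 of these belong to tested genes. CCL8 and ICAM1 hold it once, 91 and 75 bases before the start, SUCNR1 holds the wide motif once, 244 bases before it, and neither motif is in these 250 bases of SOCS1. The wide motif was found before 5.97% of 586 genes that rose and have a promoter in the table, before 9.09% of the 55 of these with a log2 change of at least 2, before 3.28% of 427 genes that fell and before 4.08% of all 11093 tested genes with a promoter. The narrow motif was found before 4.95% of those that rose, 10.9% of those that rose by at least 2 on the log2 scale, 3.51% of those that fell and 5.59% of all tested. The shares at a rise of at least 2 rest on 5 genes for the wide and 6 for the narrow motif. Of 154 genes that rose by at least 1, 8.44% held the wide and 5.84% the narrow motif. Of 51 that fell by at least 1, 3.92% held the wide and 7.84% the narrow motif. These shares are descriptions of letters in a short window, not of binding.

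IL-4 changed 1323 of 15037 tested genes in NIC1 cells (8.8%), with 772 higher (5.13%) and 551 lower (3.66%). A gene is called here when its adjusted p is under 0.05 in edgeR's quasi-likelihood test with the experiment number as a block, and "rose" and "fell" are used of called genes. Counts of called genes in the lists below are to be read beside the shares of 5.13% and 3.66% over all tested genes. Large rises were more frequent than large falls. Of the genes that rose, 225 had a log2 change of at least 1, 79 of at least 2 and 29 of at least 3, while 67 genes fell by at least 1 and 1 by at least 2. The median log2 change was 0.61 over the genes that rose, -0.44 over those that fell and -0.01 over all tested genes. Called genes were found at all levels, and since a gene with few counts can be called only at a large fold, the sizes are given by level as a description. The 61 genes that rose from under 1 CPM had a median log2 change of 2.34, the 171 from 1 to 10 CPM of 0.97, the 367 from 10 to 100 CPM of 0.48 and the 173 from 100 CPM or more of 0.37. Only 7 genes fell from under 1 CPM (median -1.68). The 78 that fell from 1 to 10 CPM had a median of -0.95, the 325 from 10 to 100 CPM of -0.43 and the 141 from 100 CPM or more of -0.29. From 1 CPM up the 2 directions were thus closer in size than from under 1 CPM. Together the risen genes went from 54640 to 82223 CPM and the fallen genes from 48810 to 37569 CPM. In bulk RNA, a change in the share of responding cells and a change in RNA per cell cannot be told apart.

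**Figure D1:**
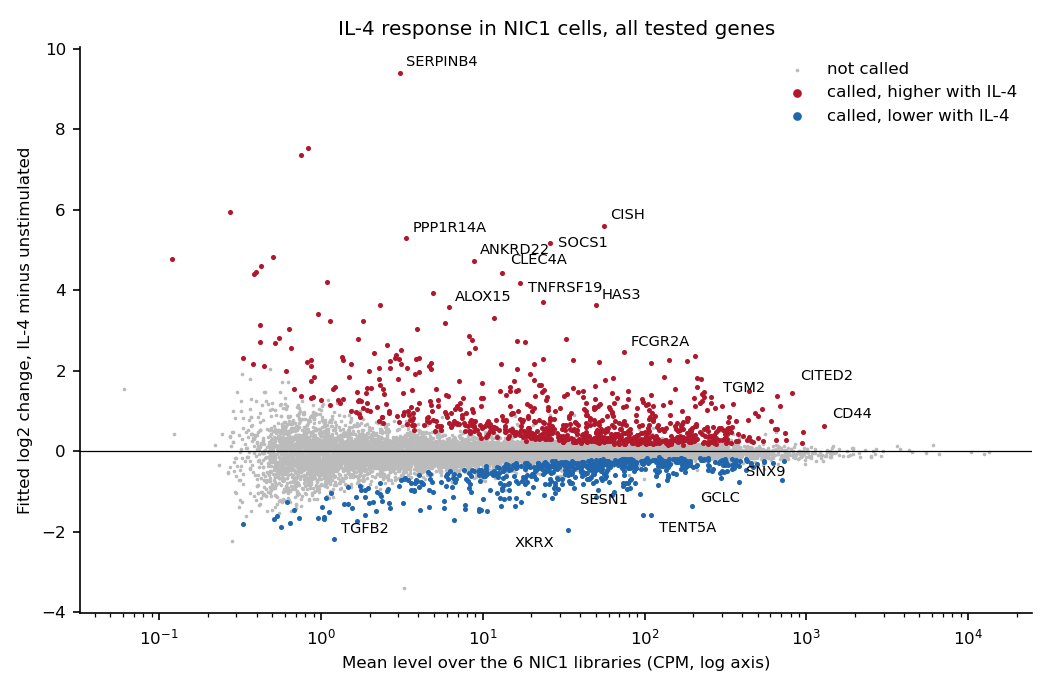
Fitted log2 change with IL-4 in NIC1 cells (vertical axis) against the mean level over the 6 NIC1 libraries in CPM (horizontal log axis). Each point is 1 of 15037 tested genes, red where higher and blue where lower with IL-4 by the test and grey where not called; SERPINB4, with no unstimulated count, stands at the top, CISH and SOCS1 are the highest among genes above 10 CPM, and called falls beyond a log2 change of -2 are rare (TGFB2).

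The values for single experiments are given as a description, since a gene is called for changing alike in them. The median log2 ratio of the genes that rose was 0.60, 0.58 and 0.59 in experiments 1, 2 and 3, and that of the genes that fell was -0.44, -0.41 and -0.46. All 1323 called genes had 1 sign in 3 of 3 experiments, as 43.8% of all tested genes did, and in 645 of the risen and 369 of the fallen genes the 3 libraries with IL-4 did not overlap the 3 without, which held for 14.9% of all tested genes. The starting levels did differ between experiments. Over the 6 NIC1 libraries the first principal component (38.0% of the variance) set experiment 2 apart from experiments 1 and 3, and the second (33.6%) parted the libraries with IL-4 from those without. The experiment number took up 51.7% of the variance in log2 CPM and IL-4 33.5%. Without the block 458 genes were called, 338 higher and 120 lower, each of them also called with it.

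Of the inhibitors that end cytokine signalling, CISH and SOCS1 were among the 15 highest changes. Of 14 tested members, 4 rose, 1 fell and 9 were not called, with a median log2 change of 0.02. CISH, which blocks STAT docking on receptors (3:50606490-50611831, minus strand), was at 2.36, 2.47 and 1.92 CPM in the unstimulated libraries of experiments 1, 2 and 3 and at 110.3, 108 and 111 CPM with IL-4. The 3 stimulated libraries differed by less than 4 CPM while the mean rose 48.8-fold (log2 change 5.61 ± 0.12, SE, adjusted p = 4.76e-18). SOCS1, which binds and inhibits Janus kinases (16:11254405-11256200, minus strand), went from 1.06, 1.83 and 1.28 CPM to 49.4, 45.1 and 56.6 CPM, a 36.2-fold rise of the mean (5.17 ± 0.20, adjusted p = 3.52e-12). SOCS3, the inhibitor of receptors that use STAT3, rose from 8.59, 13.5 and 15.3 to 22.8, 28.0 and 29.8 CPM (1.12 ± 0.19, adjusted p = 0.000804). For these 3 genes every library with IL-4 was above every library without. PTPN1, a phosphatase that acts on Janus kinases, rose by 0.53 ± 0.05 and the adaptor SH2B3 fell by 0.27 ± 0.06, while SOCS2 was at 6.92 and 4.18 CPM with no call. All 5 calls held when any 1 NIC1 library was left out, and 4 of them without the block.

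In the receptor and its kinases and STATs, 4 of 16 tested genes rose and 3 fell (median log2 change 0.10). The receptor chain IL4R (16:27313668-27364778, plus strand) was at 114, 123 and 125 CPM without and 168, 186 and 203 CPM with IL-4 (0.62 ± 0.11, adjusted p = 0.00133). STAT5A (17:42287547-42311943, plus strand) rose from 83.1, 79.2 and 80.0 to 159, 136 and 154 CPM (0.89 ± 0.06, adjusted p = 8.93e-10), and its neighbours on chromosome 17, STAT5B (0.27 ± 0.06) and STAT3 (0.32 ± 0.08), rose too. STAT6 itself, which carries the signal, was at 131, 165 and 155 CPM without and 136, 154 and 155 CPM with IL-4 and was not called (-0.01 ± 0.06, adjusted p = 0.949). The partner chains of IL4R went the other way, with IL13RA1 at -0.27 ± 0.07 and IL2RG at -0.29 ± 0.08, and the docking protein IRS1 fell from 10.7 ± 2.34 to 5.70 ± 1.08 CPM (SD, n = 3; -0.90 ± 0.18, adjusted p = 0.00189). The STAT3 call ended without IL-4 replicate 3 or unstimulated replicate 1 (adjusted p up to 0.0732), the IL13RA1 call without IL-4 replicate 1 or 3 or unstimulated replicate 2 (up to 0.0972), and the IL2RG call without any 1 of the 6 libraries (up to 0.155).

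Genes that mark IL-4-treated human macrophages changed in part. Of 31 listed genes 18 passed the filter on low counts, and of these 11 rose and none fell (median log2 change 1.14). ALOX15, the lipoxygenase that oxidises arachidonic and linoleic acid (17:4630902-4642294, minus strand), went from 0.685, 0.796 and 1.36 to 11.8, 9.32 and 13.1 CPM (3.58 ± 0.20, adjusted p = 2.88e-11). The C-type lectin CLEC4A rose from 1.15 ± 0.308 to 25.0 ± 6.05 CPM, and its library of experiment 2 was the lowest both without (0.796 CPM) and with IL-4 (18.1 CPM). The transglutaminase TGM2 rose from 361, 487 and 276 to 985, 921 and 934 CPM (1.37 ± 0.30, adjusted p = 0.0144), and it was called without the block as well, but the call ended without replicate 1 or 3 of either NIC1 group (adjusted p up to 0.0762). IL1RN (1.49), FGL2 (1.21), CD209 (1.21), F13A1 (1.07) and CTSC (0.75) rose too. The 13 genes under the filter included the mannose receptor MRC1, the chemokines CCL13, CCL17, CCL18, CCL23 and CCL26, and the transcription factor IRF4, which are familiar markers in primary cells. CCL22 was at 73.3 and 84.7 CPM, CD36 at 43.4 and 34.8 CPM and CLEC10A at 1.58 and 1.62 CPM, with no call.

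**Figure D2:**
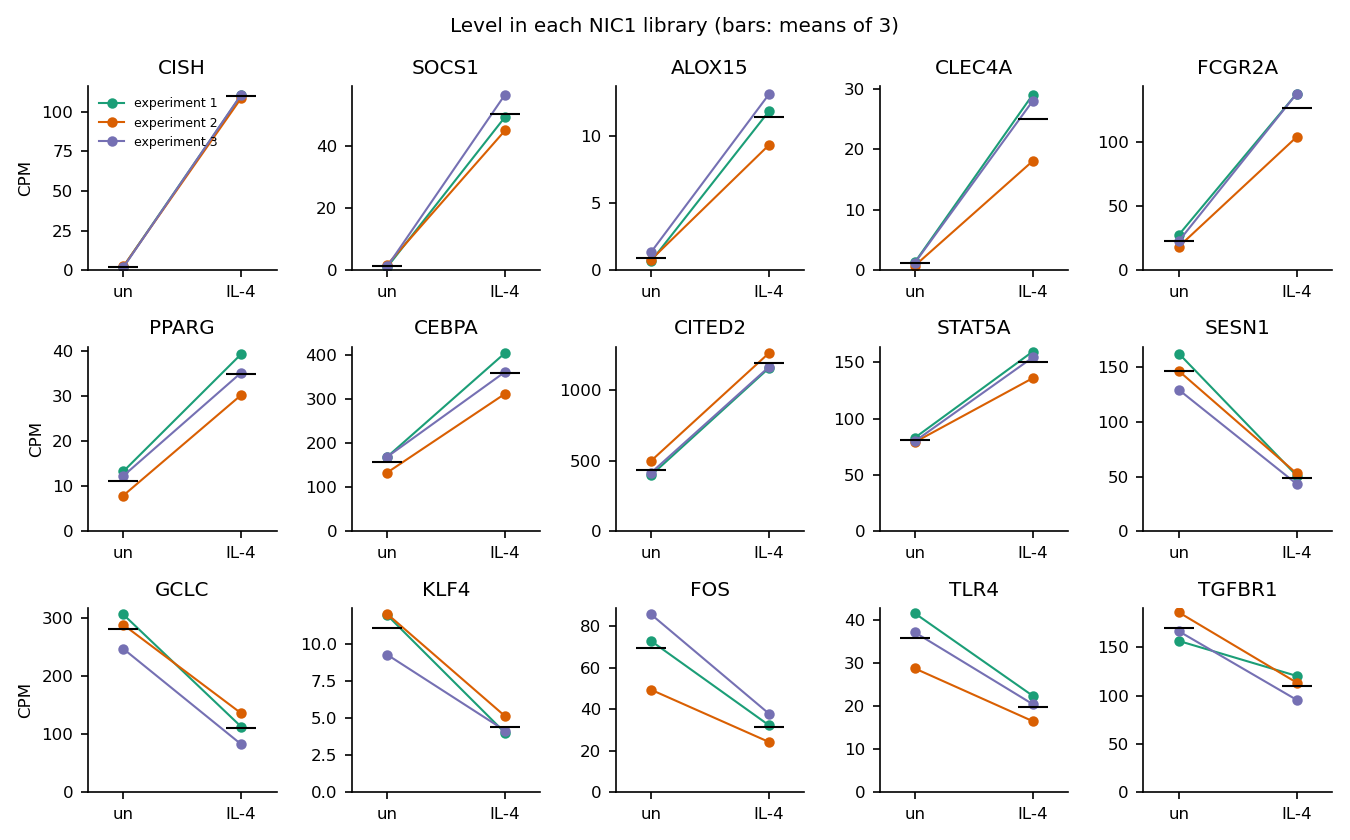
Level in CPM of 15 genes in each of the 6 NIC1 libraries, without (un) and with IL-4, with a line for each experiment and a black bar for the mean of 3. CISH goes from about 2 to about 110 CPM in every experiment, the 9 upper genes rise and the 6 from SESN1 on fall in all 3, and in CLEC4A, PPARG, CEBPA, FOS and TLR4 the libraries of experiment 2 lie lowest on both sides.

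Outside the marker list, the highest change was that of SERPINB4, an epithelial protease inhibitor (18:63637259-63644298, minus strand). It had no count in the 3 unstimulated libraries and 5.02, 6.98 and 6.40 CPM with IL-4, which is at least 79.4-fold higher when set against 3 counts over the unstimulated group. Its near-identical neighbour SERPINB3 also had no count without IL-4 and 62 counts with it. Reads that fit both genes may have been left out as not uniquely aligned, so either count may be too low. PPP1R14A, an inhibitor of myosin phosphatase, had 6 counts over the unstimulated group and reached 6.55 ± 0.725 CPM. ANKRD22 went from 0.685, 0.319 and 0.880 CPM to 25.7, 7.20 and 18.01 CPM, lowest in experiment 2 on both sides. The TNF receptor family member TNFRSF19 (1.76 ± 0.623 to 32.0 ± 7.996 CPM), carbonic anhydrase CA7 (3.38 ± 1.497 to 44.0 ± 9.99 CPM) and PDCD1LG2, the second ligand of the inhibitory receptor PD-1 (0.337 ± 0.169 to 4.27 ± 1.35 CPM), were also among the 15 highest changes, as was CCNP, a cyclin-like gene (0.603 ± 0.249 to 9.28 ± 2.39 CPM). HAS3, which makes hyaluronan, went from 6.08, 10.0 and 6.24 to 86.4, 98.5 and 91.7 CPM (3.64 ± 0.21, adjusted p = 1.11e-07), and CD44, the receptor for hyaluronan, rose from 1006 ± 215 to 1563 ± 297 CPM (0.64 ± 0.08). Both calls held in every leave-out of a NIC1 library, and the other 6 tested genes of hyaluronan synthesis and breakdown were not called.

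By CPM gained, the largest rise was that of CITED2, a transcriptional co-regulator that competes with hypoxia-inducible factors for CBP and p300, from 397, 498 and 414 to 1153, 1259 and 1161 CPM (1.46 ± 0.08, adjusted p = 1.6e-11). TGM2, CD44 and the cell cycle inhibitor CDKN1A (428 ± 27.0 to 938 ± 73.9 CPM) followed, then IL1RN, the succinate receptor SUCNR1 (346 ± 21.6 to 724 ± 58.5 CPM), the aminopeptidase ANPEP, the adhesion molecule ICAM1, the phenylalanine oxidase IL4I1 and the amino acid transporter SLC7A5. Of these 10 genes, 8 kept their call in every leave-out, the exceptions being TGM2, above, and ANPEP, whose call ended without IL-4 replicate 1 or 3 (adjusted p up to 0.0677). Long non-coding RNAs moved by less. KIF25-AS1 (10.3 ± 1.88 to 20.1 ± 4.02 CPM) and LINC00649 (27.8 ± 3.37 to 46.5 ± 4.67 CPM) rose, and MIR3142HG, the host gene of miR-146a (4.58 ± 1.33 to 1.88 ± 0.493 CPM), and LINC02362 (3.15 ± 0.817 to 1.497 ± 0.215 CPM) fell.

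Receptors on the cell surface changed in several families. In the Fc receptors 5 of 9 tested genes rose and 1 fell (median log2 change 1.01). FCGR2A, the activating low-affinity IgG receptor (1:161505430-161524013, plus strand), rose from 27.8, 18.6 and 22.9 to 138, 104 and 138 CPM (2.47 ± 0.11, adjusted p = 2.36e-11) and its inhibitory relative FCGR2B from 1.74 ± 0.479 to 7.57 ± 1.22 CPM. FCER2, the low-affinity IgE receptor, had 8 counts in the unstimulated group against 87 in the stimulated one, and FCAR, the IgA receptor, fell from 20.0 ± 1.42 to 9.07 ± 2.25 CPM (-1.15 ± 0.13, adjusted p = 1.94e-06). FCGR2A, FCGR2B and FCGR2C are close copies, and reads that fit more than 1 of them may have been left out of their counts. FCGR2C and FCGR1BP rose too, but both calls ended without unstimulated replicate 1 (adjusted p = 0.078 and 0.0619). Neither was called without the block (adjusted p = 0.222 and 0.325). The signalling chain FCER1G was at 309 and 256 CPM with no call.

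The interleukin 1 family had 5 of 12 tested genes higher and none lower (median log2 change 0.26). IL1R1, the signalling receptor of interleukin 1, rose from 4.72, 5.89 and 3.52 to 20.1, 26.1 and 17.2 CPM (2.17 ± 0.13, adjusted p = 1.16e-10), and IL1RN, which blocks it, rose from 232 ± 41.9 to 650.5 ± 71.9 CPM. IL1RL1, the receptor of interleukin 33 (4.32 ± 0.327 to 10.7 ± 0.550 CPM), and IL18R1, the receptor of interleukin 18 (64.2 ± 9.80 to 141 ± 5.35 CPM), also rose. These 3 receptor genes lie close together on chromosome 2 (102064544 for the first base of IL1R1 to 102398775 for the last of IL18R1). The annotated spans of IL1RL1 and IL18R1 overlap on 1 strand, and reads that fit both may have been left out as ambiguous. The cytokine genes did not follow, as IL1B was at 207 and 178 CPM, IL1A at 6.01 and 4.30 CPM and IL18 at 7.93 and 6.14 CPM, with no call. IL10RA, the signalling receptor of interleukin 10, rose from 63.3, 42.4 and 74.2 to 170.5, 119 and 186 CPM (1.41 ± 0.08, adjusted p = 6.9e-11), and TNFRSF11A, the receptor of RANK ligand, from 0.861 ± 0.268 to 3.70 ± 1.29 CPM.

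Chemokines moved both ways. The monocyte and T cell attractants CCL4 (2.23 ± 1.45 to 21.1 ± 12.4 CPM), CCL3 (39.1 ± 20.6 to 82.2 ± 37.8 CPM), CCL5, CCL7 and CCL8 rose, and CCL20, a ligand of CCR6, fell from 16.6, 24.5 and 14.4 to 5.28, 11.2 and 6.03 CPM (-1.34 ± 0.16, adjusted p = 6.59e-06). The neutrophil attractants CXCL1, CXCL3 and CXCL8 fell, the last from 21.97 ± 10.7 to 10.1 ± 6.62 CPM. Of 18 tested ligands and receptors 5 rose and 4 fell (median 0.06). The CXCL1 call ended without IL-4 replicate 3 (adjusted p = 0.0665), the CXCL3 call without any 1 of the 6 libraries (up to 0.0814) and the CXCL8 call without IL-4 replicate 2 or 3 or unstimulated replicate 1 (up to 0.0645). CCL3 and CCL4 have near-identical copies in the genome, and CCL8 had 4 counts in all before IL-4 and 89 after. In the libraries of experiment 2 CCL3 and CCL4 were highest on both sides.

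Toll-like receptors and their adaptors had no gene higher and 5 of 15 lower (median -0.05). TLR4, the receptor of lipopolysaccharide (9:117704175-117724730, plus strand), fell from 41.5, 28.7 and 37.1 to 22.4, 16.5 and 20.5 CPM (-0.85 ± 0.13, adjusted p = 0.000185), and the kinase IRAK2 (-0.80 ± 0.12) and TLR6 (-0.38 ± 0.08) fell as well. TLR1 and TLR2 fell by 0.32 ± 0.08 and 0.34 ± 0.10, and the TLR1 call ended without IL-4 replicate 1 (adjusted p = 0.0689) and the TLR2 call without any library other than unstimulated replicate 3 (up to 0.241). Among NF-kappaB genes, NFKB1 rose (164 ± 4.84 to 222 ± 5.54 CPM) and TNFAIP3, which restrains the pathway, fell (102 ± 7.23 to 63.3 ± 3.71 CPM), while TNF was at 16.2 and 9.63 CPM with no call.

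Transcription factors of the myeloid lineage moved within these 3 h. Of 23 tested haematopoietic factors 8 rose and 2 fell (median 0.15). CEBPA, which commits progenitors to the myeloid lineage (19:33299934-33302564, minus strand), rose from 169, 133 and 169 to 404, 312 and 362 CPM (1.19 ± 0.06, adjusted p = 1.6e-11). TAL1, known from erythroid and stem cell programmes, rose from 2.74, 2.55 and 2.40 to 14.8, 15.2 and 15.8 CPM (2.57 ± 0.18, adjusted p = 8.07e-10), and IRF8, a factor of monocyte and dendritic cell fate, from 12.3, 8.12 and 11.8 to 42.9, 27.0 and 32.1 CPM. MYB, a factor of proliferating progenitors, fell from 13.9 ± 4.29 to 6.08 ± 1.21 CPM. SPI1, the master factor of macrophages, was at 338 and 320 CPM with no call. Of the 10 calls, 7 held in every leave-out and 5 without the block, while that of CEBPB ended without any library other than IL-4 replicate 3 (adjusted p up to 0.209), that of CEBPD without replicate 1 of either group (up to 0.123) and that of RUNX2 without unstimulated replicate 2 or 3 (up to 0.0794).

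Genes of AP-1 subunits included both rises and falls. BATF3 (1.31 ± 0.307 to 5.52 ± 0.918 CPM), BATF (9.36, 8.76 and 6.56 to 32.8, 30.9 and 29.6 CPM; 1.92 ± 0.13, adjusted p = 8.83e-10), ATF3 (1.03 ± 0.11) and JUN (0.71 ± 0.07) rose. FOS fell from 72.9, 49.5 and 85.8 to 32.4, 24.3 and 38.0 CPM (-1.13 ± 0.08, adjusted p = 1.87e-09), and MAF (-0.41 ± 0.12) fell too, with a call that ended without any library other than unstimulated replicate 3 (adjusted p up to 0.219). In all 4 of 12 tested rose and 3 fell (median -0.01). KLF4, a zinc finger factor of monocytes, fell from 11.9, 12.02 and 9.28 to 4.01, 5.14 and 4.17 CPM and KLF6 from 94.8 ± 0.225 to 52.5 ± 2.08 CPM, within a list of early genes in which 2 of 17 rose and 5 fell (median -0.19).

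Nuclear receptors for lipids and vitamins gave 3 rises and 1 fall among 12 (median 0.04). PPARG, the fatty acid receptor (3:12287368-12434356, plus strand), rose from 13.3, 7.96 and 12.3 to 39.3, 30.3 and 35.2 CPM (1.66 ± 0.13, adjusted p = 4.46e-09), the vitamin D receptor VDR from 37.6, 39.3 and 38.0 to 100.1, 93.5 and 94.1 CPM (1.32 ± 0.07, adjusted p = 4.43e-12) and the retinoic acid receptor RARA from 35.8 ± 1.40 to 61.5 ± 0.788 CPM. RXRA, the shared partner of all 3, fell from 198 ± 2.27 to 161 ± 1.79 CPM, a call that ended without IL-4 replicate 1 or 3 or unstimulated replicate 2 or 3 (adjusted p up to 0.115). In lipid handling the lysosomal cholesterol carrier NPC1 rose (64.2 ± 5.49 to 147 ± 21.9 CPM), and the lipid droplet protein PLIN2 (67.6 ± 8.70 to 34.98 ± 4.69 CPM) and the cholesterol exporter ABCA1 (38.1 ± 5.20 to 20.2 ± 4.17 CPM) fell, the last with a call that ended without IL-4 replicate 1 or 3 (adjusted p up to 0.082).

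**Figure D3:**
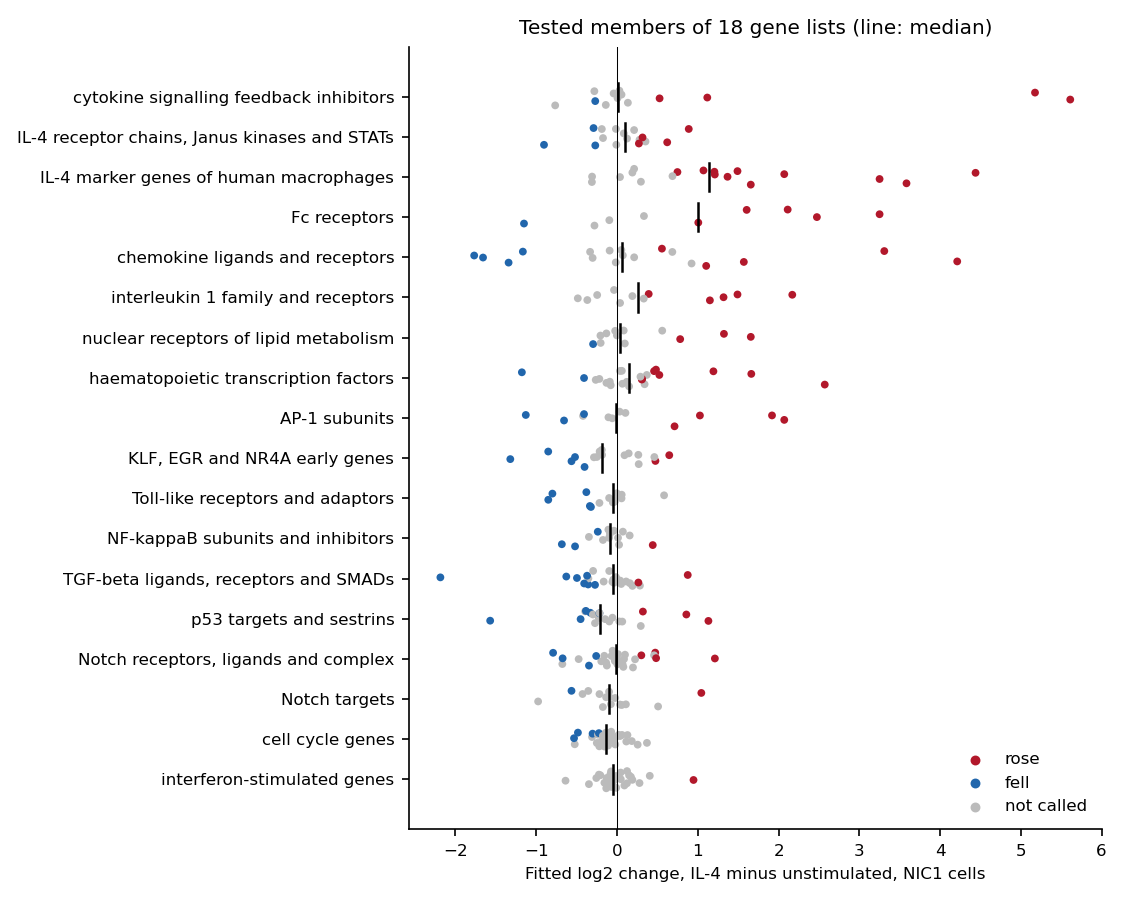
Fitted log2 change with IL-4 in NIC1 cells (horizontal axis) of the tested members of 18 gene lists (rows), red where a gene rose, blue where it fell and grey where it was not called, with a line at each list's median. The members called among IL-4 markers all lie above 0 and those among Toll-like receptors below it, while AP-1 subunits and chemokines hold called genes on both sides.

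The genes that fell reached smaller factors. XKRX, a membrane protein of the XK family, had the lowest log2 change within the limits set for naming, from 45.1, 71.4 and 43.3 to 11.97, 22.5 and 8.26 CPM (-1.96 ± 0.26, adjusted p = 0.000357). SESN1, a stress-induced inhibitor of mTORC1 signalling (6:108986437-109094819, minus strand), fell from 162, 147 and 129 to 51.0, 52.9 and 43.4 CPM (-1.57 ± 0.09, adjusted p = 1.54e-10), and TENT5A, a poly(A) polymerase, from 148, 187 and 156 to 47.3, 60.8 and 56.2 CPM (-1.58 ± 0.09, adjusted p = 1.41e-10). GCLC, the catalytic subunit of the enzyme that starts glutathione synthesis (6:53497341-53616970, minus strand), fell from 306, 289 and 247 to 113, 136 and 82.9 CPM (-1.37 ± 0.09, adjusted p = 3.46e-09). XKRX alone of these 4 was not called without the block (adjusted p = 0.174). By CPM lost, SNX9, a sorting nexin of endocytosis, led with 468, 551 and 437 CPM without and 277, 325 and 257 CPM with IL-4 (-0.76 ± 0.06, adjusted p = 1.01e-08). GCLC, STK38L, the Polycomb gene PHC2 (361 ± 48.6 to 229 ± 27.2 CPM) and the nuclear export receptor XPO1 (349 ± 34.99 to 239.9 ± 21.3 CPM) were also among the 10 largest falls. SLC7A11, which imports the cystine used for glutathione, rose from 42.6 ± 4.36 to 84.0 ± 7.55 CPM, and the other 13 tested NRF2 genes were not called.

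Phosphodiesterases, which break down cyclic nucleotides, moved both ways. PDE4B fell from 11.2 ± 3.32 to 4.21 ± 1.42 CPM, while PDE4A (0.41 ± 0.08) and PDE3B (0.63 ± 0.09) rose. Transforming growth factor beta genes had 7 members lower and 2 higher of 24 (median -0.05). TGFB2 fell from 76 counts (1.99 ± 0.495 CPM) to 18 counts (0.429 ± 0.0749 CPM), the receptor TGFBR1 fell from 156, 186 and 166 to 120.3, 113 and 95.6 CPM, and ACVR1, a receptor for bone morphogenetic proteins, rose from 24.0 ± 2.99 to 43.9 ± 3.09 CPM. Targets of p53 split, with CDKN1A, FAS and MDM2 higher and SESN1, GADD45A, TNFRSF10B, BTG1 and CCNG1 lower among 19. The GADD45A call ended without IL-4 replicate 2 or 3 or unstimulated replicate 1 or 3 (adjusted p up to 0.151) and the CCNG1 call without IL-4 replicate 1 or 2 or unstimulated replicate 1 (up to 0.0902). Cell cycle genes had 4 of 33 lower and none higher (median -0.14), with E2F1 at 41.8 ± 6.60 and 28.96 ± 4.48 CPM. In every leave-out 2 of these 4 calls held, that of E2F1 included, and without the block 0 did. Interferon-stimulated genes had 1 of 30 higher, GBP1, whose call ended without IL-4 replicate 3 or unstimulated replicate 1 or 3 (adjusted p up to 0.152), and none of 13 mitochondrially encoded genes was called.

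Among 14 leukocyte integrins ITGAM, ITGAV and ITGB3 rose and ITGA5 and ITGA6 fell (median -0.02), as with the complement receptor chain ITGAM at 205 ± 18.6 and 268 ± 21.9 CPM and the fibronectin receptor chain ITGA5 at 509 ± 86.7 and 401 ± 73.5 CPM. Of these 5 calls 3 held in every leave-out and 0 without the block. The ITGB3 call ended without any IL-4 replicate or unstimulated replicate 3 (adjusted p up to 0.234). The ITGA6 call ended without IL-4 replicate 3 or unstimulated replicate 1 (up to 0.0591). In the TNF superfamily 4 of 22 rose and 5 fell (median 0.03), where the ligand CD70 fell from 31.0 ± 3.42 to 17.8 ± 2.55 CPM and the death receptor FAS rose from 4.26 ± 0.238 to 7.76 ± 0.698 CPM. Of these 9 calls 6 held in every leave-out and 3 without the block. Semaphorins, plexins and neuropilins had 4 of 21 lower and none higher (median -0.05), of which the call of PLXNC1 alone (57.8 ± 5.37 to 39.2 ± 6.20 CPM) held in every leave-out.

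The Notch pathway itself was then read in the same cells. NOTCH1 was at 245, 350.1 and 267 CPM without and 368, 453 and 367 CPM with IL-4 (0.47 ± 0.05, adjusted p = 1.81e-06), and its count includes any read from the vector that aligns to it. Of 16 tested Notch targets 1 rose and 1 fell (median -0.10). HEY1 rose from 4.35 ± 0.513 to 9.14 ± 2.75 CPM, lowest in the IL-4 library of experiment 1 (6.22 CPM), (1.04 ± 0.18, adjusted p = 0.000329) and MYC fell from 51.2 ± 5.35 to 34.6 ± 3.71 CPM (-0.56 ± 0.12), and neither was called without the block. HES1 was at 23.6, 32.6 and 26.0 CPM without and 23.8, 32.5 and 24.6 CPM with IL-4, HES4 at 15.1 ± 3.24 and 13.9 ± 1.28 CPM and the feedback inhibitor NRARP at 10.1 and 7.79 CPM, with no call. Among receptors, ligands and complex members 4 of 30 rose and 4 fell (median -0.01). The ubiquitin ligase gene DTX4 (4.33 ± 1.36 to 10.2 ± 5.13 CPM), the DNA-binding partner RBPJ (0.30 ± 0.07) and the ligand JAG2 rose with NOTCH1, and the ligand DLL1 (45.1 ± 13.6 to 25.9 ± 5.93 CPM), the glycosyltransferase LFNG, the inhibitor NUMB and the protease ADAM17 fell. None of these 8 calls held without the block, and 4 ended in a leave-out. These were RBPJ without IL-4 replicate 1 (adjusted p = 0.0509), ADAM17 without IL-4 replicate 3 (0.075), JAG2 without IL-4 replicate 2 or unstimulated replicate 1 (up to 0.0897) and NUMB without IL-4 replicate 2 or 3 or unstimulated replicate 1 (up to 0.0939).

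To ask which genes responded differently with active NOTCH1, the change in NIC1 cells was set against that in IRES cells and in DNMAML cells, which share no library with it. IL-4 changed 1360 genes in IRES cells (9.04%) and 1496 in DNMAML cells (9.95%). Of the 772 genes that rose in NIC1 cells, 601 also rose in IRES cells, where 732 did (4.87%), and 560 in DNMAML cells, where 753 did (5.01%). Of the 551 that fell, 411 also fell in IRES cells, where 628 did (4.18%), and 408 in DNMAML cells, where 743 did (4.94%). No gene called in NIC1 cells was called the other way in either. The 242 genes called in NIC1 cells alone are not thereby shown to differ, and the difference itself was tested. The genes that rose in NIC1 cells had a median log2 change of 0.56 in IRES and 0.52 in DNMAML cells, and those that fell -0.40 and -0.42. These genes were picked by their change in NIC1 cells, which favours larger values there, so the medians do not rank the constructs.

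**Figure D4:**
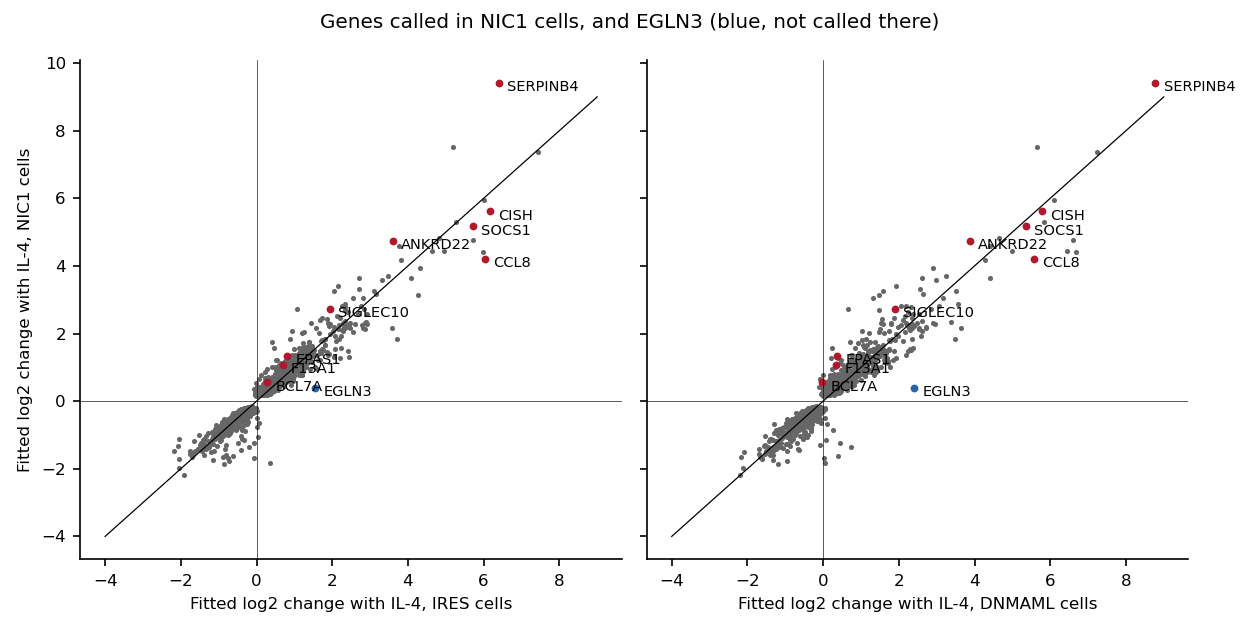
Fitted log2 change with IL-4 in NIC1 cells (vertical axes) against that in IRES cells (left) and DNMAML cells (right) for the 1323 genes called in NIC1 cells (grey, named ones red) and for EGLN3 (blue), which is not called there. The diagonal marks equal changes; most points lie along it, and EGLN3 lies to its right in both panels, at 0.39 against 1.56 and 2.41.

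For the difference from IRES cells edgeR called 0 genes (0.0%), with 366 at an unadjusted p under 0.05, a number that 5% of the tested genes would put at 752, and a lowest adjusted p of 1.00, and DESeq2 called 0 with 174 at an unadjusted p under 0.05. For the difference from DNMAML cells edgeR called 0 as well, with 610 at an unadjusted p under 0.05 and a lowest adjusted p of 0.0593, while DESeq2 called 3. Without NIC1 unstimulated replicate 2 the numbers at an unadjusted p under 0.05 were 603 and 949. Without 1 of the other NIC1 libraries they were 344 to 432 and 536 to 647. Leaving out the 2 libraries with the most genes detected gave 370 and 371, with a lowest adjusted p of 0.344 for the difference from DNMAML. A missed threshold does not show that the responses are alike. CISH, for example, rose by 0.55 ± 0.25 less on the log2 scale in NIC1 than in IRES cells and by 0.18 ± 0.23 less than in DNMAML cells. A finer block, in which each stimulated library is compared with the unstimulated library of its own construct and experiment, gave 0 genes that differed from IRES (811 at an unadjusted p under 0.05, lowest adjusted p 0.0871) and 13 that differed from DNMAML. Of these 13, EGLN3 and the syndecan gene SDC2 (-0.39 ± 0.08) had a lower log2 change in NIC1 cells and 11 a higher one, among them FCGR2A (0.57 ± 0.10) and PDE4A (0.42 ± 0.07).

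The genes with the smallest p-values in these tests are named here as having missed the threshold. EGLN3, a prolyl hydroxylase that marks hypoxia-inducible factors for decay (14:33924231-34462774, minus strand), was at 6.39, 5.81 and 6.24 CPM in unstimulated NIC1 cells and 9.83, 5.21 and 9.53 CPM with IL-4. In DNMAML cells it went from 2.80, 1.68 and 3.69 to 19.9, 8.30 and 15.7 CPM and in IRES cells from 3.63, 4.11 and 3.04 to 14.1, 6.69 and 11.96 CPM. The unstimulated NIC1 libraries thus lay above all unstimulated libraries of the other constructs, and the rise with IL-4 was 0.39 ± 0.22 in NIC1 (adjusted p = 0.389), 1.56 ± 0.23 in IRES (adjusted p = 9.42e-05) and 2.41 ± 0.23 in DNMAML cells (adjusted p = 4.85e-07). The difference was -2.02 ± 0.32 from DNMAML (unadjusted p = 7.28e-06, adjusted p = 0.0593) and -1.17 ± 0.32 from IRES (unadjusted p = 0.00181, adjusted p = 1.00). In each construct the IL-4 library of experiment 2 was the lowest of its 3.

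EPAS1, which encodes the hypoxia-inducible factor HIF-2 alpha (2:46293667-46386703, plus strand), leaned the other way. It rose from 5.10, 5.41 and 6.56 to 14.98, 11.5 and 16.7 CPM in NIC1 cells (1.33 ± 0.14), against 0.82 ± 0.13 in IRES and 0.38 ± 0.13 in DNMAML cells, where it was not called (adjusted p = 0.0717). The unstimulated means were 5.69 ± 0.769 CPM in NIC1, 7.88 ± 0.833 CPM in IRES and 9.58 ± 2.58 CPM in DNMAML cells, and those with IL-4 were 14.4 ± 2.69, 13.9 ± 1.87 and 12.3 ± 1.41 CPM, so the means lay further apart without IL-4 than with it. The difference from DNMAML was 0.96 ± 0.19 (adjusted p = 0.291). The coagulation factor gene F13A1 rose from 32.0 ± 5.15 to 66.9 ± 6.45 CPM in NIC1 cells and stood at 46.5 ± 8.92 and 58.5 ± 6.08 CPM in DNMAML cells, with a difference of 0.73 ± 0.15 (adjusted p = 0.55). BCL7A, a subunit of BAF chromatin remodelling complexes, rose from 28.6, 31.5 and 28.9 to 41.7, 45.1 and 44.4 CPM in NIC1 cells and from 25.1 ± 1.78 to 30.4 ± 1.89 CPM in IRES cells, and was at 24.2 ± 0.903 and 23.9 ± 1.69 CPM in DNMAML cells (difference from DNMAML 0.58 ± 0.10, adjusted p = 0.0593). MAP3K14, the kinase of the alternative NF-kappaB pathway, was at 0.23 ± 0.07 in NIC1 (adjusted p = 0.0559), -0.21 ± 0.07 in IRES (adjusted p = 0.079) and -0.26 ± 0.07 in DNMAML cells (adjusted p = 0.022). Its sign was the same in 3 of 3 experiments within each construct, which a gene picked for a small p tends to show. In NIC1 cells 43.8% of all tested genes had 1 sign in 3 of 3.

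Against IRES cells, the smallest p-values also went to the inhibitory lectin gene SIGLEC10, at 4.25 ± 1.18 and 28.4 ± 4.84 CPM in NIC1 and 5.75 ± 1.99 and 21.8 ± 3.08 CPM in IRES cells (difference 0.81 ± 0.22), to the mitochondrial glycerol phosphate dehydrogenase gene GPD2 (1.17 ± 0.07 in NIC1, 0.79 ± 0.07 in IRES cells) and to PEX5L, which had 80 and 55 counts in NIC1 cells. Transcript length moved with these differences. Over 4 classes of the tested genes by exon length, the median difference from IRES went from -0.04 in the shortest to 0.03 in the longest and that from DNMAML from -0.04 to 0.04, and the share of genes called in NIC1 cells from 5.52% to 11.4%. Its part in the results was not tested. PEX5L has 10236 exonic bases, EGLN3 7359, EPAS1 7302, GPD2 7155, BCL7A 6565, MAP3K14 5784, F13A1 4690 and SIGLEC10 3667. The median over the tested genes with a known length was 4669.5. Of the genes listed, PEX5L and EGLN3 had a lower log2 change in NIC1 cells than in both other constructs, and the others a higher one.

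**Figure D5:**
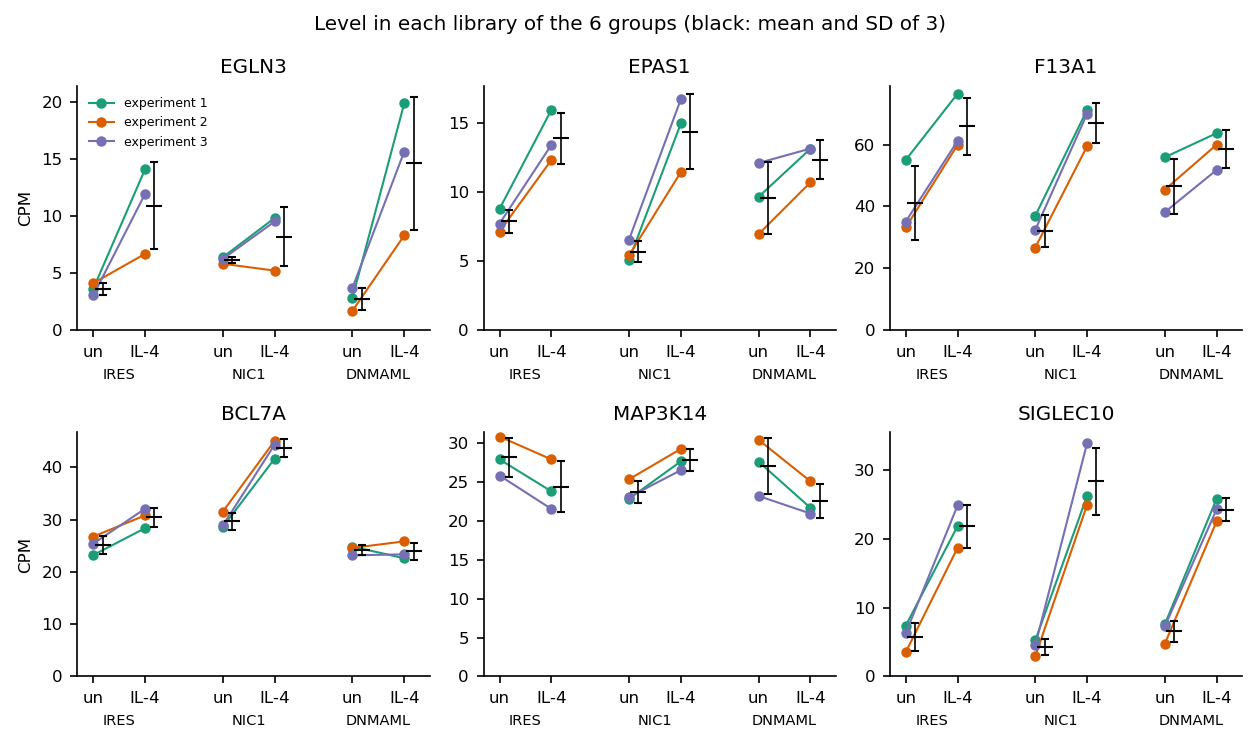
Level in CPM of 6 genes in all 18 libraries, by construct and without (un) or with IL-4, with a line for each experiment and the mean and SD of 3 in black. EGLN3 rises most in DNMAML cells (2.72 to 14.6 CPM on average) and least in NIC1 cells (6.15 to 8.19 CPM), while the slopes of EPAS1, F13A1 and BCL7A are steepest in NIC1 cells.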

How the data were processed

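The deposited files hold raw counts of reads per gene, made by the authors, 1 file for each library, with 58051 genes. The submitters' processing notes name HISAT2 and HTSeq, beside FastQC, Trimmomatic and DESeq2, and the build GRCh38.p12. Versions, annotation and strand use were not stated there, so reads of overlapping and antisense genes may be credited to the wrong gene or left out as ambiguous. Entries that name no gene (23.8% to 30.9% of reads) were left out. They include reads with more than 1 alignment (15.6% to 19.2%) and reads ambiguous between genes (2.38% to 2.56%). Here, filterByExpr over all 18 libraries kept 15037 genes, libraries were scaled by TMM, and edgeR 4.0.16 (R 4.3.3) fitted 6 group means with the experiment number as a block (glmQLFit, robust, glmQLFTest, Benjamini-Hochberg over all genes, threshold 0.05). The numbers pair the libraries: deviations from group means correlated across genes in all 45 pairs of libraries with 1 number (r of 0.206 to 0.759). Levels are CPM, as mean ± SD (n = 3), log2 changes have an SE, and log2 ratios for single experiments use a prior count of 2. Named genes are list members and, among called genes without overlap of libraries that reach 2 CPM in either group, the 15 highest and 15 lowest changes, the 10 largest rises and falls in CPM and the 5 highest and lowest long non-coding RNAs, and for the differences the 5 smallest p-values. The comparison, the 50 gene lists and the rules were chosen with earlier results of these data known. Coordinates are from GENCODE 29 (GRCh38), promoters from RefSeq (GRCh38.p14), where 51 of 66 genes named by rank had one. DESeq2 1.42.0, other scalings, filters, blocks and leave-outs were alternatives. A few members of the lists are counted but not reported by name here.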

Additional observations from a re-analysis of the deposited data

Results flagged for a closer look

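The 5 genes with the smallest p-values for a difference of the IL-4 response between NIC1 and DNMAML cells were each called under DESeq2 or with a finer block by both construct and experiment, although none was called in the fit used for the report. The finer block called 13 genes in all, these 5 included. EGLN3 had the largest difference, with a log2 change lower by 2.02 in NIC1 cells (-2.02 ± 0.32). Its adjusted p was 2.39e-05 in DESeq2 and 0.0356 with the finer block, against 0.0593 in the report's fit. EPAS1 had a difference of 0.957 (adjusted p = 0.00948 with the finer block, 0.0936 in DESeq2), F13A1 of 0.732 (0.00117 and 0.04), BCL7A of 0.579 (0.00948 and 0.04) and MAP3K14 of 0.49 (0.0498 and 0.587). All 5 signs were the same in every fit run. The fits share libraries and the genes were picked for small p-values, so this adds no support.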

How the results depend on the processing

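The count of genes called in NIC1 cells was 1323 with the experiment block, 458 without it, 2157 with a finer block by both construct and experiment, 2287 from the 6 NIC1 libraries alone, 243 for changes tested against 1.5-fold, 1234 in DESeq2 and 643 to 1252 over leave-outs of a NIC1 library or a whole experiment, the lowest without experiment 3. Of the 1323, 760 kept their call in each of the 6 leave-outs of 1 NIC1 library. Of 219 called genes from the lists and naming rules, 148 kept it in each of these, 95 without the block, 214 with the finer block and 214 in DESeq2, and none changed sign. Scaling by DESeq2's method (1330), a filter of at least 1 CPM in 3 libraries (1325), no filter (1550) and leaving out the 2 libraries with the most genes detected (1301) stayed within 1.5 times. The difference from IRES gave 0 called genes except with no filter (8), and that from DNMAML 0 except with no filter (56), the finer block (13), DESeq2 (3) and, over leave-outs, 0 to 2, with 2 without DNMAML IL-4 replicate 2 and 1 without experiment 2. The cause was not tested. Genes near 0 change crossed it over leave-outs, with HES1 between -0.196 and 0.142, HES4 between -0.206 and 0.000241 and STAT6 between -0.0454 and 0.0321 on the log2 scale. Differences of low genes are limited by depth, as 3 counts over a group of 3 NIC1 libraries are 0.0772 CPM, which covers counting error only.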

Other observations

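Families were formed by symbol after the values were seen, so counts are given as a description with no test. Of 248 tested solute carrier genes 33 rose and 11 fell (17.7% called, against 8.8% of all tested genes), although their median log2 change was 0.00. The inositol transporter SLC5A3 rose from 66.4 to 342 CPM, the zinc and manganese transporter SLC39A8 from 28.0 to 99.7 CPM, the arginine transporter SLC7A2 from 14.1 to 36.05 CPM and the bicarbonate transporter SLC4A7 from 71.3 to 154 CPM. The pair SLC7A5 and SLC3A2, which together import large neutral amino acids, both rose, from 351 to 648 CPM and from 127 to 146 CPM. In the genes named for phosphoinositide 3-kinase, PIK3R5 (55.6 to 137 CPM), PIK3CD (81.1 to 179.6 CPM), PIK3C2B and PIK3CG rose and PIK3CB (92.7 to 70.5 CPM), PIK3IP1 and PIK3AP1 fell, 7 of 15 tested. By contrast 7 of 471 tested genes with a ZNF symbol (1.49%) and 0 of 79 cytosolic ribosomal protein genes were called by edgeR.

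IGHE, the constant region gene of immunoglobulin E, had no count in the unstimulated NIC1 libraries and 70 counts with IL-4 (1.67 ± 0.640 CPM), at least 21.6-fold higher against 3 counts over the unstimulated group. The gene lies below the level set for naming and was picked after its values were seen. It rose in IRES (0.0242 to 1.22 CPM) and DNMAML cells (0.0251 to 1.64 CPM) as well. In the same NIC1 libraries IGHM and MS4A1, which B cells express, had 0 to 1 count per group. Other B cell markers did have counts, and 3 of the 8 listed passed the filter on low counts. The sum over all 8 was 15.2 to 20.9 CPM without IL-4 and 13.4 to 17.8 CPM with it.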
